A study of Mus musculus with 69 samples.

Results

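The 9 genes described here, Hnf4a, Foxa1, Foxa2, Foxa3, Cebpa, Cebpb, Hhex, Prox1 and Onecut1, encode transcription factors of hepatocyte identity. They were chosen by name, with earlier results of these data known, and every probe of each gene was taken. They have 11 probes among the 25697 on the array, and 9 of these probes, for 8 of the 9 genes, were bright enough to be tested. The livers came from 69 C57BL/6J mice killed at 25 months of age, with 1 array per mouse. Rapa mice were fed 14 ppm of rapamycin, an inhibitor of the mTOR kinase, for 21 months from 4 months of age, and control mice were fed the same chow with Eudragit, the polymer that encapsulates the drug. There were 21 Rapa females and 16 control females, and 6 Rapa-2 males, 7 Rapa-1 males and 19 control males. The study drew Rapa-1 and Rapa-2 from the expression values of these same arrays, so p-values for either of them are descriptive.

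Hepatocytes are kept in their differentiated state by a small network of transcription factors that bind the promoters and enhancers of liver genes and of one another. HNF4A is a nuclear receptor that acts on a large share of liver promoters. The FOXA proteins are forkhead factors that can bind DNA in closed chromatin, and C/EBP alpha and C/EBP beta are leucine zipper factors of metabolic and acute phase genes. HHEX, PROX1 and ONECUT1 (HNF6) carry homeodomains and are needed early in liver development.

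Stretches of 300 bases were taken around the RefSeq start sites, from 250 bases before to 50 after. Shown are those of the genes whose brightest tested probe passed a test below. They are from GRCm38.p6 and are written 5' to 3' on the strand of the gene. Capitals mark matches, on either strand, to letters bound by the factors themselves: CAAAGNNCA for HNF4A, TGTTTNC for FOXA, TTGCNNAA for C/EBP and ATTGAT for ONECUT. They also mark GTTAAT, the letters of HNF1, which is not among the genes described here. The promoter of Hnf4a that is used in adult liver lies on the plus strand at chr2:163546905-163547204, and holds a pair of HNF1 matches that do not overlap, at -81 and -74 from the start site. The promoter of Foxa1, on the minus strand at chr12:57546062-57546361, holds a FOXA match at -141. The promoters of Cebpa, on the plus strand at chr7:35119043-35119342, and of Hhex, on the plus strand at chr19:37434591-37434890, hold none of these letters.
Hnf4a: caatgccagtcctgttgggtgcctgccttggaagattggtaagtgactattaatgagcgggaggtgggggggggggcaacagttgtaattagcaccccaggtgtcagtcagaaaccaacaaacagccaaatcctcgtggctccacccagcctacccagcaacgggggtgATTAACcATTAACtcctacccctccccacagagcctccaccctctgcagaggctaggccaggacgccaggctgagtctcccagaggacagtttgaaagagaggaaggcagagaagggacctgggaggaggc
Foxa1: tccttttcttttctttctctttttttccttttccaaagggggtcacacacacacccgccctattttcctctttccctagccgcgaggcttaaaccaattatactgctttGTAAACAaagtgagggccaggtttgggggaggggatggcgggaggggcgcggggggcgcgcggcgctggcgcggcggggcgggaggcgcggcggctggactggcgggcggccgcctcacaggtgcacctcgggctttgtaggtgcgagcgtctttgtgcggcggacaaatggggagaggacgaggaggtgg
Cebpa: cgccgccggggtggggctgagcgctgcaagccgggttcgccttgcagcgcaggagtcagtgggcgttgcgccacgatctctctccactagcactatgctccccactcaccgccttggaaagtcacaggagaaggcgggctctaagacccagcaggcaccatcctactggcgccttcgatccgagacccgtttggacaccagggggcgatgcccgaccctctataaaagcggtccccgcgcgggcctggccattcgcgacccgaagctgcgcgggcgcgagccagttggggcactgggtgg
Hhex: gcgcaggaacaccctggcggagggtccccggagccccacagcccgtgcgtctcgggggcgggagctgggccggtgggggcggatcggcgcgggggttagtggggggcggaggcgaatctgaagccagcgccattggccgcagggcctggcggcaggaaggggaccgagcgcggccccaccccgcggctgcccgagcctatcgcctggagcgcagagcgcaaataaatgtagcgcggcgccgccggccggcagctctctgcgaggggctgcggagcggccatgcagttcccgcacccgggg

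Of the 32851 mouse promoters of the same length, 7.10% hold the HNF1 letters, 20.5% the FOXA letters, 10.8% the C/EBP letters, 7.54% the ONECUT letters and 6.36% the HNF4A letters, so a match is common and is given as a description of the sequence. The 9 genes have 13 such promoters in all. An upstream promoter of Hnf4a, at chr2:163506607-163506906, holds a FOXA match at -238 and an ONECUT match at -59. A promoter of Foxa2 holds an HNF4A match at 17 bases after the start site and an HNF1 match at -176, another promoter of Foxa2 holds an ONECUT match at -213, and 1 of Prox1 holds a FOXA match at -120. Foxa3, Cebpb and Onecut1 had no match in this window.

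Levels are log2 of the bead signal after quantile normalization between arrays, and a difference is the mean of the first group minus that of the second. A transcript passed with an adjusted p under 0.05 by limma's moderated two-sided test and a change of over 15%. In Rapa females, 3 of the 8 tested genes passed against control females, with Foxa1 and Cebpa higher and Hnf4a lower, where 38.4% of all 12442 tested probes passed (20.0% higher and 18.5% lower). In Rapa-2 males, 4 of the 8 passed against control males, with Foxa1, Cebpa and Hhex higher and Hnf4a lower, and 36.3% of all tested probes passed (20.9% higher and 15.4% lower). In Rapa-1 males none of the 8 passed by limma, 2 had an unadjusted p under 0.05, and 0.378% of all probes passed. When all 13 Rapa males were compared with control males, Foxa1 and Hhex passed, both higher, and 10.6% of all probes passed (3.06% higher and 7.52% lower). Between the sexes on the control diet 1 gene passed, Cebpa, higher in control females, and 35.6% of all probes passed (19.5% higher and 16.1% lower). With 8 genes, these shares lay near those of all probes in Rapa females and Rapa-2 males and below them in control females, and nothing about the genes is read from the counts. The 3 male comparisons share the control males, and the sex comparison shares both control groups.

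**Figure D1:**
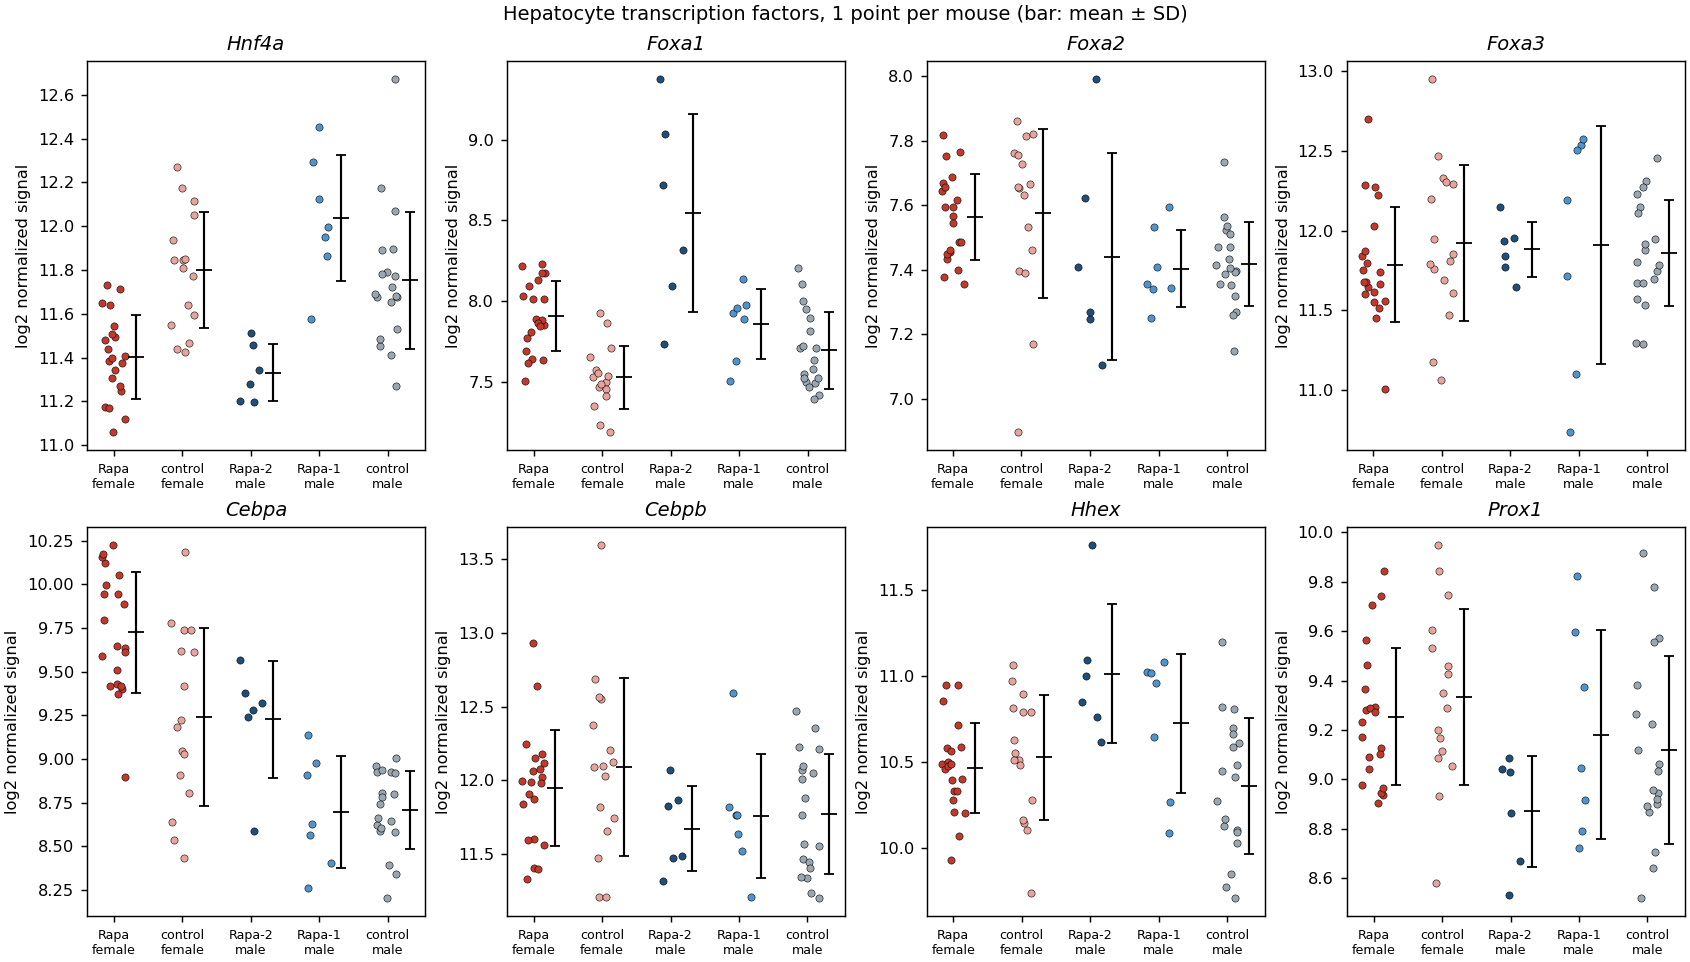
Log2 normalized signal (vertical axis, a different range in each panel) of the brightest tested probe of 8 transcription factors, with 1 point per mouse in each of the 5 groups and a bar for the mean ± SD. Hnf4a lay low in Rapa females and Rapa-2 males, Foxa1 was highest in Rapa-2 males, and Cebpa was higher in both female groups and in Rapa-2 males than in control males.

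Arrays differed in brightness before scaling, which bears on every comparison below. The raw median signal of an array was 87.9 to 116.5 in Rapa females and 92.4 to 119 in control females, and 84 to 96.8 in Rapa-2 males, 116.8 to 130.8 in Rapa-1 males and 113.8 to 146 in control males. The share of probes detected was 37.1% to 42.5% in Rapa females and 40.4% to 47.4% in control females, and 40.7% to 44.3% in Rapa-2, 41.0% to 45.1% in Rapa-1 and 42.4% to 46.9% in control males. No Rapa-2 array had a raw median as high as the dimmest control male array, so raw brightness and the Rapa-2 group cannot be told apart. Hepatocyte markers, such as Alb, Ttr and Cyp3a11, were tested for 10 of the 12 genes of the list on the array, with a summed linear level of 188068 to 217064 in Rapa females and 182711 to 220158 in control females, and of 203767 to 234185 in Rapa-2 males, 211800 to 230258 in Rapa-1 males and 213110 to 236155 in control males. These sums are set by the brightest genes. Singly, 0 of the 10 passed as higher and 3 as lower in Rapa females (Ttr, Tdo2 and Serpina1a, by 0.22 to 0.56), 1 as higher (Cyp3a11, by 0.56) and 4 as lower in Rapa-2 males (the same 3 and Alb), and 0 and 0 in Rapa-1 males, and their part in the levels below was not tested. In whole liver, fewer cells of a type and less RNA per cell cannot be told apart.

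Hnf4a, whose product is the nuclear receptor HNF4A, was lower in Rapa females. Its log2 level had a lowest, median and highest value of 11.06, 11.40 and 11.73 in Rapa females, against 11.43, 11.83 and 12.27 in control females. All 21 Rapa females lay under the control female median, 12 of them lay under every control female, and 10 of the 16 control females lay above every Rapa female. The level fell by 24.0%, a log2 difference of -0.40 ± 0.07 (SE) with an adjusted p of 2.2e-05. The call held under 16 of 17 alternatives, with values from -0.78 to -0.35, and was lost with a minimum change of 1.5-fold, which no member met in Rapa females.

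In males the level of Hnf4a differed between the titled groups. Rapa-2 males gave 11.20, 11.31 and 11.51 for the lowest, median and highest value, Rapa-1 males 11.57, 12.00 and 12.46, and control males 11.27, 11.69 and 12.67. All 6 Rapa-2 males lay under the control male median and under every Rapa-1 male, and 6 of the 7 Rapa-1 males lay above that median. The single values were 11.51, 11.28, 11.20, 11.20, 11.34 and 11.46 in Rapa-2 males, and 12.29, 12.00, 12.46, 12.12, 11.95, 11.57 and 11.86 in Rapa-1 males. Every Rapa-1 male exceeded every Rapa-2 male, a description only, since the groups come from these arrays. The share of all tested probes without overlap between these groups was not computed, so nothing particular to Hnf4a is read from it. The same groups also part by raw brightness and by animal number, and the paper reports more rapamycin in the livers of Rapa-2 males. These cannot be told apart here. Hnf4a fell by 25.3% in Rapa-2 males, a log2 difference of -0.42 ± 0.13 with an adjusted p of 0.0080, and passed under 19 of 21 alternatives. The exceptions were the fit with the raw median of each array (-0.70, adjusted p = 0.154) and the 1.5-fold minimum. In Rapa-1 males the difference was 0.28 ± 0.13, with an unadjusted p of 0.0377 and an adjusted p of 0.335. Over all 13 Rapa males it was -0.04, with a 95% interval of -0.30 to 0.22. The diet difference in females minus that in all males was -0.35 ± 0.14, which missed the threshold (adjusted p = 0.067), and it passed with arrays scaled to a common median in place of quantile normalization (-0.70, adjusted p = 0.00158). With only Rapa-1 males it was -0.68 ± 0.14 and passed (adjusted p = 0.000149), where 36.4% of all probes passed. With only Rapa-2 males it was 0.03, with an interval of -0.26 to 0.31. Control females and control males differed by 0.05, with an interval of -0.15 to 0.24. In order of the mean the groups ran Rapa-1 males, control females, control males, Rapa females and Rapa-2 males, and only the gap between control males and Rapa females, 0.35, was larger than the SD of both neighbours.

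A list of 29 known HNF4A target genes, such as those of bile acid conjugation, clotting and gluconeogenesis, was followed beside Hnf4a, and 25 of them were tested. In Rapa females 5 passed as higher and 5 as lower, and the list's median log2 difference was 0.06 against 0.03 over all probes. Among them G6pc, glucose-6-phosphatase, was 0.52 higher and Pklr, liver pyruvate kinase, 0.50 higher, while F11, clotting factor XI, fell by 0.58 and Baat, which conjugates bile acids to amino acids, fell by 0.48 on the log2 scale. In Rapa-2 males 0 passed as higher and 7 as lower, with a median of -0.03 against 0.09 over all probes. The largest of these were Baat, which fell by 2.56, Otc, ornithine transcarbamylase of the urea cycle, which fell by 1.28, Ttr, transthyretin, which fell by 0.70, and Slc10a1, the bile acid importer, which fell by 0.63. Baat and Otc also differed between the sexes on the control diet, by -2.27 and -1.17 in control females against control males, and there 5 target genes passed as higher and 10 as lower. In Rapa-1 males 0 of 25 passed, and the smallest adjusted p, 0.196, was that of Apoa4.

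Foxa1, whose product is a forkhead factor active from early liver development, was higher in Rapa females and in Rapa-2 males. Its lowest, median and highest log2 values were 7.50, 7.88 and 8.23 in Rapa females, against 7.19, 7.51 and 7.92 in control females. Of the Rapa females 20 of 21 lay above the control female median and 9 lay above every control female. The level was 30.3% higher, a log2 difference of 0.38 ± 0.07 with an adjusted p of 1.2e-05. The call held in 15 of 17 alternatives and was lost under median scaling (0.10, adjusted p = 0.422) and with the 1.5-fold minimum. Under median scaling the median difference of all probes was -0.20, and 5722 of the 12442 tested probes passed, only 1.33% of them as higher. Of the 8 genes, 6 passed as lower there and 0 as higher, with Foxa2, Foxa3, Cebpb, Hhex and Prox1 gaining a call. Nearly all passing probes were lower under that scaling, so nothing particular to the genes is read from these lower calls.

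Among males, the Foxa1 values were 7.73, 8.52 and 9.38 in Rapa-2 males, 7.50, 7.92 and 8.14 in Rapa-1 males and 7.39, 7.63 and 8.21 in control males. All 6 Rapa-2 males lay above the control male median and 4 of them above every control male, and the 6 mice spanned more of the scale than any other group. Their single values, in the order of the titles, were 8.09, 8.72, 8.32, 7.73, 9.04 and 9.38. The level was 80.6% higher in Rapa-2 males, a log2 difference of 0.85 ± 0.16 with an adjusted p of 9.2e-05, and passed under 20 of 21 alternatives, all but the one with the raw median in the fit (0.40, adjusted p = 0.552). In Rapa-1 males the difference was 0.17, with an interval of -0.04 to 0.37. Over all Rapa males Foxa1 was 39.7% higher (log2 0.48 ± 0.14, adjusted p = 0.0176), and that call held in 14 of 21 alternatives. It was lost with control males of either run of animal numbers alone, the runs being divided at the widest gap in the numbers (0.50, adjusted p = 0.180, and 0.47, adjusted p = 0.0981), and with the run as a random block (0.50, adjusted p = 0.302). It was also lost with the raw median in the fit (0.12, adjusted p = 0.829), with the detected share in it (0.32, adjusted p = 0.152), with the replicate number as a block (0.50, adjusted p = 0.289) and with the 1.5-fold minimum. The diet difference was smaller in Rapa females than in Rapa-2 males, with an interaction of -0.47 ± 0.16 and an adjusted p of 0.0250. In that test 19.6% of all probes passed. The interaction over all males was -0.10 with an interval of -0.40 to 0.20. Control females minus control males came to -0.17 ± 0.07, with an adjusted p of 0.053. In order of the mean, Rapa-2 males stood above Rapa females by 0.64, more than the SD of either group, and below them Rapa females, Rapa-1 males, control males and control females were separated by gaps no larger than their SDs.

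Foxa2 and Foxa3, close relatives of Foxa1 with overlapping binding sites, passed in no comparison, but under median scaling both passed as lower in Rapa females (-0.26, adjusted p = 0.00476, and -0.51, adjusted p = 0.00670). Foxa2 ran from 7.36 to 7.82 in Rapa females and 6.90 to 7.86 in control females, and from 7.10 to 7.99 in Rapa-2, 7.25 to 7.60 in Rapa-1 and 7.15 to 7.74 in control males. Its difference in Rapa females was -0.01, with an interval of -0.14 to 0.12, and in Rapa-2 males 0.02, with an interval of -0.15 to 0.20. Control females exceeded control males by 0.16 ± 0.07 with an adjusted p of 0.0454, but the change of 11.5% was under the minimum. A further Foxa2 probe was detected on 0 of 69 arrays, where its log2 signal was 6.32 to 6.70, and was not tested.

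Foxa3, a forkhead gene active in adult liver and gut, had values of 11.01, 11.68 and 12.70 in Rapa females and 11.06, 11.83 and 12.95 in control females. Rapa-2 males gave 11.65, 11.89 and 12.15, Rapa-1 males 10.74, 12.19 and 12.57, and control males 11.29, 11.81 and 12.46. The 7 Rapa-1 males were the most spread group (SD 0.75) and the 6 Rapa-2 males the least (SD 0.17). The differences were -0.13 in Rapa females, with an interval of -0.41 to 0.14, and 0.02 in Rapa-2 males, with an interval of -0.26 to 0.30. Of 11 tested FOXA target genes, several of which are also on the HNF4A list, 2 passed as higher and 3 as lower in Rapa females, 0 and 6 in Rapa-2 males, 0 and 0 in Rapa-1 males, and 0 and 2 in control females against control males. Tdo2, tryptophan dioxygenase, fell by 0.46 in Rapa females and by 0.52 in Rapa-2 males, and Pck1, which opens gluconeogenesis, fell by 0.45 and by 0.60. The list's median was -0.14 in Rapa females and -0.21 in Rapa-2 males, against 0.03 and 0.09 over all probes.

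**Figure D2:**
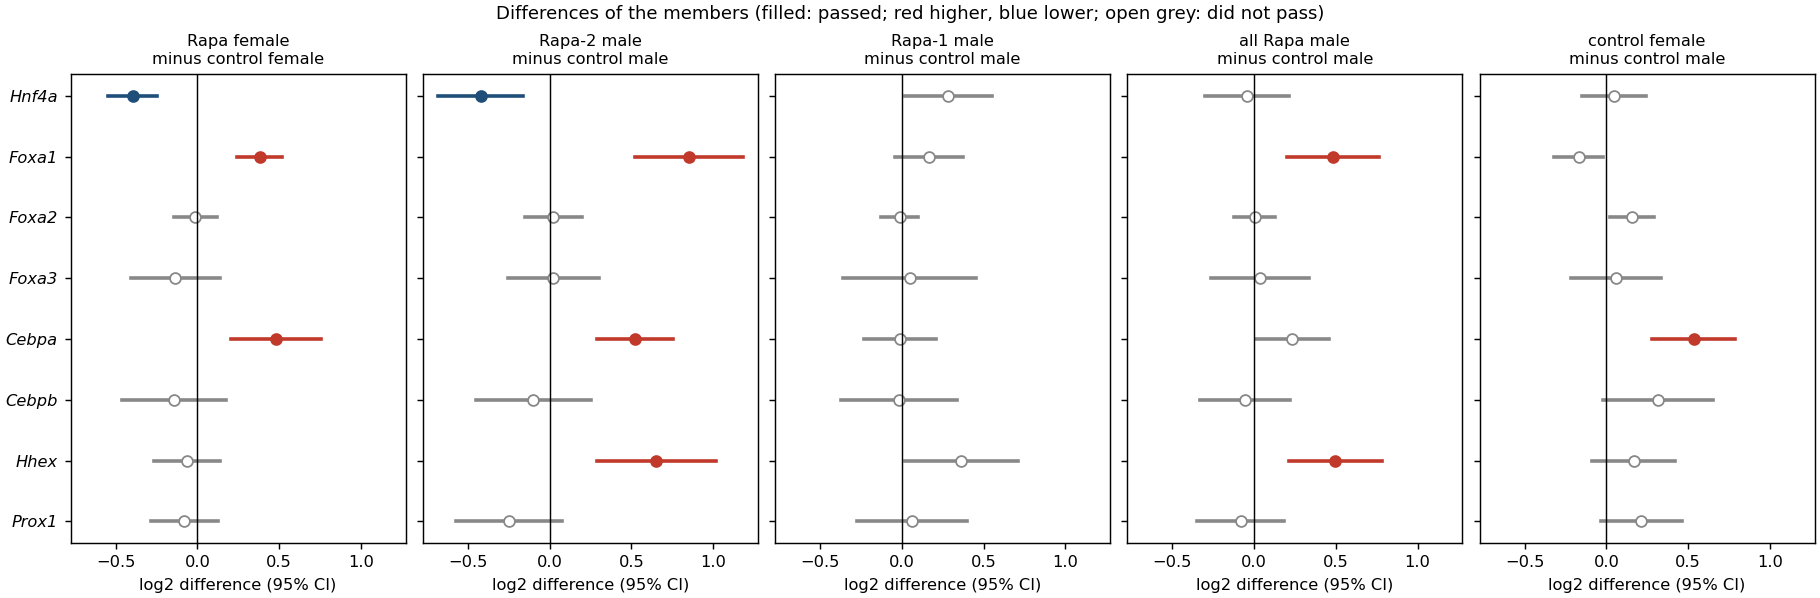
Log2 difference (horizontal axis) with its 95% interval for each of the 8 tested genes in 5 comparisons. Filled points passed (red higher, blue lower) and open grey points did not, and in Rapa-1 males none of the 8 is filled.

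Cebpa, whose product C/EBP alpha acts on metabolic genes and restrains proliferation, was higher in Rapa females, in Rapa-2 males and in control females than in the control groups they were set against. Its lowest, median and highest values were 8.90, 9.65 and 10.23 in Rapa females, against 8.43, 9.20 and 10.18 in control females. Of the Rapa females 20 of 21 lay above the control female median, but only 1 lay above every control female, and the ranges overlapped along most of their length. The level was 39.8% higher in Rapa females, a log2 difference of 0.48 ± 0.14 with an adjusted p of 0.0027. The call held in 12 of 17 alternatives. It was lost when the detected share of each array entered the fit, where the sign turned (-0.081, adjusted p = 0.816), under median scaling (0.03, adjusted p = 0.848), with control females of the second run of animal numbers alone (0.33, adjusted p = 0.0832), with the run as a random block (0.49, adjusted p = 0.0540), and with the 1.5-fold minimum.

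In Rapa-2 males Cebpa had values of 8.59, 9.30 and 9.57, against 8.20, 8.74 and 9.00 in control males, and 5 of the 6 Rapa-2 males lay above every control male. The other, replicate 4, lay at 8.59, under the control male median. The single values were 9.38, 9.24, 9.32, 8.59, 9.28 and 9.57. The level was 43.5% higher, a log2 difference of 0.52 ± 0.11 with an adjusted p of 0.00051, and 0.65 without replicate 4. It passed under 19 of 21 alternatives, all but the one with the raw median in the fit (0.44, adjusted p = 0.338) and the 1.5-fold minimum. Rapa-1 males had values of 8.26, 8.63 and 9.14 and a difference of -0.01, with an interval of -0.23 to 0.21. The difference over all Rapa males was 0.23 ± 0.11 and missed the threshold (adjusted p = 0.133). Control females were 44.9% above control males, a log2 difference of 0.53 ± 0.13 with an adjusted p of 0.000514, and 11 of 16 control females lay above every control male. This call was lost with the raw median in the fit (0.42, adjusted p = 0.140) and with the 1.5-fold minimum, and held under the other 11 alternatives. The Rapa female mean, 9.73, was the highest of the 5, followed by control females at 9.24, Rapa-2 males at 9.23, control males at 8.71 and Rapa-1 males at 8.70. Only the gap between Rapa-2 and control males, 0.52, was larger than the SD of both neighbours. The interaction over all males was 0.25 with an interval of -0.11 to 0.61. With only Rapa-1 males it was 0.49 ± 0.20 (adjusted p = 0.0428), where 36.4% of all probes passed. With only Rapa-2 males it was -0.04, with an interval of -0.45 to 0.37.

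Cebpb, whose product C/EBP beta drives acute phase genes, passed in no comparison. Its values were 11.33, 11.99 and 12.94 in Rapa females and 11.21, 12.09 and 13.60 in control females, with a difference of -0.14 and an interval of -0.46 to 0.18, which came to -0.50 and passed under median scaling (adjusted p = 0.0187). Rapa-2 males gave 11.32, 11.65 and 12.07, Rapa-1 males 11.21, 11.76 and 12.59, and control males 11.20, 11.77 and 12.47, with a difference of -0.10 in Rapa-2 males and an interval of -0.45 to 0.25. Control females exceeded control males by 0.32 ± 0.17 (adjusted p = 0.103), and 4 of 16 lay above every control male. Of 15 tested C/EBP target genes, 1 passed as higher and 2 as lower in Rapa females, 1 and 4 in Rapa-2 males, 0 and 0 in Rapa-1 males, and 1 and 4 in control females against control males. Adh1, alcohol dehydrogenase, was 0.56 higher in Rapa females and 0.44 higher in Rapa-2 males, while Hamp, the iron hormone hepcidin, fell by 1.28 in Rapa-2 males. The list's median was -0.22 in Rapa females and -0.21 in Rapa-2 males, against 0.03 and 0.09 over all probes. The C/EBP and FOXA lists share genes, and the same gene gave both medians in Rapa-2 males, so these are not separate results.

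Markers of neutrophils and Kupffer cells were set beside Cebpa and Cebpb, which are also active in myeloid cells. All 5 neutrophil genes tested fell in Rapa females, among them S100a8, which fell by 2.36, and S100a9, which fell by 2.39 on the log2 scale, and their summed linear level was 530.2 to 25077 in Rapa females and 731 to 55336 in control females. In Rapa-2 males 0 of 5 passed, with sums of 549.6 to 1603, against 552 to 20066 in control males. Control females exceeded control males in all 5. Of 4 Kupffer cell genes tested, Adgre1 fell by 0.32 in Rapa females and fell by 1.85 in Rapa-2 males. The others passed in neither, and differed by -0.54 to -0.26 in Rapa females and, on the other side of 0, by 0.09 for Marco, 0.39 for Vsig4 and 0.91 for Clec4f in Rapa-2 males. The list's median was -0.35 in Rapa females and 0.24 in Rapa-2 males, against 0.03 and 0.09 over all probes. The sums were 3015 to 22389 in Rapa females and 4038 to 26297 in control females, and 3176 to 24368 in Rapa-2, 2396 to 14102 in Rapa-1 and 2101 to 15289 in control males. The part of these cells in the levels of Cebpa and Cebpb was not tested.

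Hhex, a homeobox gene of the early liver bud that is also active in endothelium, was higher in Rapa-2 males and over all Rapa males, and did not pass in Rapa females. Its values were 9.93, 10.48 and 10.95 in Rapa females and 9.74, 10.53 and 11.06 in control females, with a difference of -0.06 and an interval of -0.26 to 0.14, which came to -0.50 and passed as lower under median scaling (adjusted p = 0.00316). Rapa-2 males gave 10.62, 10.93 and 11.76, Rapa-1 males 10.09, 10.96 and 11.08, and control males 9.71, 10.41 and 11.20. All 6 Rapa-2 males and 5 of 7 Rapa-1 males lay above the control male median, and 14 of 19 control males lay below every Rapa-2 male. The single values were 10.62, 10.85, 10.77, 11.00, 11.09 and 11.76 in Rapa-2 males, and 10.09, 11.03, 11.02, 11.08, 10.96, 10.64 and 10.27 in Rapa-1 males, and these groups overlapped. The level was 57.2% higher in Rapa-2 males, a log2 difference of 0.65 ± 0.18 with an adjusted p of 0.0037, and the call held in 18 of 21 alternatives. It was lost with control males of the first run of animal numbers alone, which lie next in number to the Rapa-2 males (0.51, adjusted p = 0.0542), when the raw median of each array entered the fit (0.21, adjusted p = 0.810), and with the replicate number as a block (0.38, adjusted p = 0.066).

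In Rapa-1 males Hhex differed by 0.36 ± 0.17, with an unadjusted p of 0.0391 and an adjusted p of 0.340. Over all 13 Rapa males it was 41.2% higher (log2 0.50 ± 0.14, adjusted p = 0.0162), and 11 of 13 lay above the control male median. That call held in 14 of 21 alternatives. It was lost with control males of the first run alone (0.36, adjusted p = 0.260) or of the second run alone (0.58, adjusted p = 0.0545), and with the run as a random block (0.48, adjusted p = 0.390). It was also lost under median scaling (0.42, adjusted p = 0.0996), with the raw median in the fit (0.30, adjusted p = 0.521), with the replicate block (0.30, adjusted p = 0.277) and with the 1.5-fold minimum. Hhex was the 1 gene of the 8 to pass the test of diet by sex over all 69 arrays, at -0.56 ± 0.17 for the diet difference in females minus that in males (adjusted p = 0.0157), where 20.4% of all probes passed (9.27% as lower). This call held in 7 of 10 alternatives, and was lost with the detected share in the fit (-0.48, adjusted p = 0.120), with the replicate block (-0.44, adjusted p = 0.334) and with only Rapa-1 males. With only Rapa-2 males it was -0.72 ± 0.20 (adjusted p = 0.00523), where 19.6% passed (9.78% as lower), and with only Rapa-1 males -0.43 ± 0.19 (adjusted p = 0.069), where 36.4% passed. In order of the mean the groups ran Rapa-2 males, Rapa-1 males, control females, Rapa females and control males, and each gap was smaller than the SD of its neighbours.

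Markers of endothelial and lymphatic cells were set beside Hhex and Prox1, since both genes are also active in such cells. All 10 genes of the list were tested. In Rapa-2 males 3 passed as higher, Pecam1 by 0.31, Tek by 0.24 and Cdh5 by 0.34, and 1, Lyve1, fell by 1.17. In Rapa females 0 passed as higher and 2 as lower. Their summed linear level was 5454 to 8595 in Rapa females and 6732 to 11078 in control females, and 6912 to 7599 in Rapa-2, 3782 to 8643 in Rapa-1 and 5394 to 8648 in control males, and the part of these cells in the Hhex level was not tested.

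Prox1, a homeobox gene of hepatocytes and lymphatic endothelium, had 2 tested probes, which did not give the same calls. By the brighter probe its values were 8.90, 9.23 and 9.84 in Rapa females and 8.58, 9.32 and 9.95 in control females, and 8.53, 8.95 and 9.08 in Rapa-2, 8.72, 9.05 and 9.82 in Rapa-1 and 8.52, 9.03 and 9.92 in control males. The brighter probe passed in no comparison, with differences of -0.08 in Rapa females (interval -0.29 to 0.12, and -0.53 with an adjusted p of 0.00221 under median scaling) and -0.25 in Rapa-2 males (interval -0.57 to 0.07). The other probe, detected on 68 of 69 arrays, fell by 0.26 ± 0.09 on the log2 scale in Rapa-2 males (adjusted p = 0.0223) and by 0.24 ± 0.08 over all Rapa males (adjusted p = 0.0335), and was 0.21 ± 0.07 higher in control females than in control males (adjusted p = 0.0107). Its call in Rapa-2 males held in 13 of 21 alternatives and was lost, among others, when Rapa-2 replicate 2, 4 or 5 was left out (adjusted p = 0.0511, 0.0820 and 0.0644), and its call over all Rapa males held in 10 of 21.

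Onecut1, whose product HNF6 acts with HNF4A and the FOXA factors, was not detected on any of the 69 arrays. Its log2 signal was 6.49 to 6.84, with a lowest detection p of 0.122, so no statement on its level was possible.

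Other liver transcription factors, among them nuclear receptors, GATA, NFI and clock output factors, gave 23 tested genes. In Rapa females 4 passed as higher and 5 as lower, and in Rapa-2 males 2 and 8. Nfib, of the nuclear factor I family, fell by 0.63 in Rapa females and by 0.39 in Rapa-2 males, and Mlxipl (ChREBP), the carbohydrate-responsive factor of lipogenesis, was 0.53 and 0.48 higher. In Rapa females Gata6 fell by 0.48 and Nr2f6 was 0.32 higher. In Rapa-2 males Dbp, a clock output factor, fell by 1.02, Atf5 by 0.80, Klf15 by 0.64 and Nr1i2, the pregnane X receptor, by 0.55. In Rapa-1 males 0 of 23 passed, and Dbp had the smallest adjusted p, 0.114, at -1.41. Between control females and control males 5 passed as higher, among them Gata6 by 0.79, Nr5a2 by 0.45 and Onecut2 by 0.43, and 3 as lower, among them Nr1i2, which was lower by a log2 difference of -0.42. The list's median was -0.03 in Rapa females and -0.12 in Rapa-2 males, against 0.03 and 0.09 over all probes.

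Across single mice, after the mean of each group had been subtracted, pairs of the 8 genes were correlated with both signs, but no negative pair passed under median scaling. Of the 28 pairs, 16 had an adjusted p under 0.05 for Pearson's r in a permutation test over 100000 shuffles within groups. Of these, 11 were positive and 5 negative, and 15 also had an adjusted p under 0.05 for Spearman's rho. The share of passing pairs among other tested genes was not computed, so nothing particular to these genes is read from the count. Foxa3 and Cebpa ran opposite to each other (r = -0.54, rho = -0.54, both with an adjusted permutation p of 0.00028), with r from -0.79 to -0.34 in the 5 groups taken singly and -0.51 without the 2 mice farthest from the median of Foxa3. Hnf4a and Cebpb ran together (r = 0.53, rho = 0.47, adjusted permutation p = 0.00028 and 0.00103), with r from 0.08 to 0.73 in the single groups and 0.48 without 2 mice. Of the 16 pairs, 8 had the same sign in all 5 groups.

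Hnf4a and Prox1 gave r = 0.50 (rho = 0.45, adjusted permutation p = 0.0007 and 0.00177), but r was 0.02 within Rapa females and 0.60 to 0.63 in the other groups. Foxa1 and Foxa2 gave r = 0.52 (rho = 0.41, adjusted permutation p = 0.0007 and 0.00322), which was 0.39 without the 2 mice farthest from the median of Foxa1, and in single groups ran from -0.30 in Rapa-1 males to 0.96 in Rapa-2 males. Cebpa and Cebpb gave r = -0.47 (rho = -0.41, adjusted permutation p = 0.00131 and 0.00322) and were negative in all 5 groups. Foxa2 and Cebpa gave r = 0.47 (rho = 0.37, adjusted permutation p = 0.00131 and 0.00983). Hnf4a and Cebpa, which moved in opposite directions in Rapa females and Rapa-2 males, gave r = -0.36 within groups (rho = -0.37, adjusted permutation p = 0.00622 and 0.00739). Within the 6 Rapa-2 males alone it was 0.66, and in the other groups it ran from -0.74 to -0.33.

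**Figure D3:**
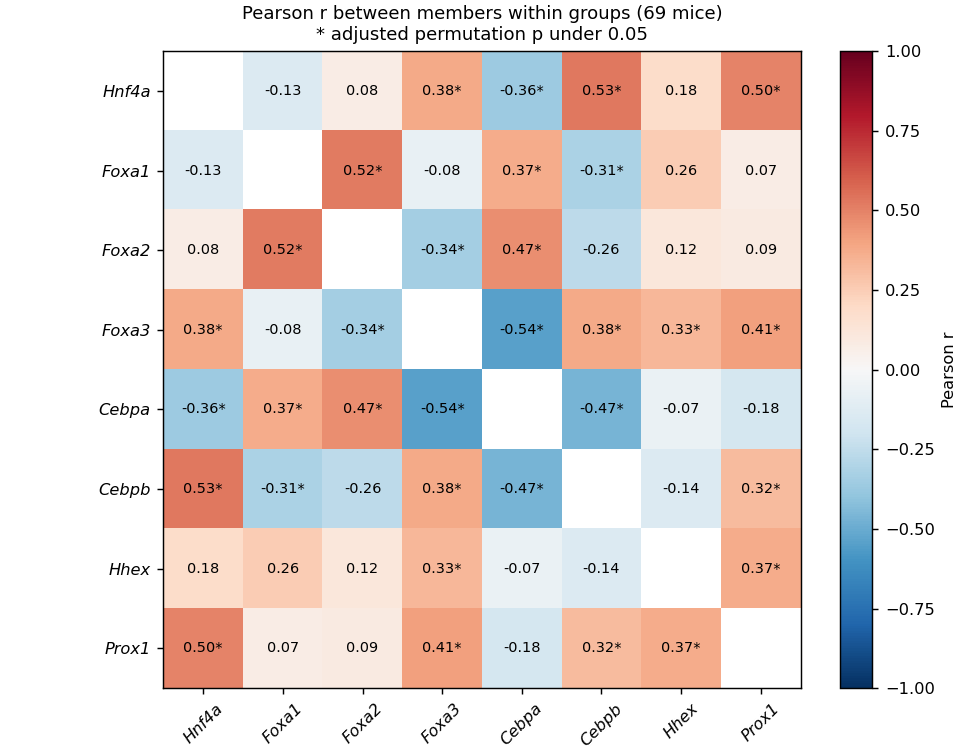
Pearson r between the levels of each pair of the 8 genes across 69 mice, after the mean of each of the 5 groups was subtracted (colour from -1 to 1, value in each cell). Asterisks mark an adjusted permutation p under 0.05, held by 16 of 28 pairs, with Foxa3 and Cebpa at -0.54 and Hnf4a and Cebpb at 0.53. The share among pairs of other genes was not computed.

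The negative pairs depended on the scaling. Under median scaling 20 of 28 pairs had an adjusted p under 0.05, all positive, and 8 pairs turned sign. Foxa3 and Cebpa then gave r = -0.17 (adjusted permutation p = 0.235), Cebpa and Cebpb -0.20 (adjusted permutation p = 0.181) and Hnf4a and Cebpa -0.0051 (adjusted permutation p = 0.968). Foxa2 and Foxa3 (0.12, against -0.34) and Foxa1 and Cebpb (0.04, against -0.31) turned positive and did not pass. Of the 8 genes, Cebpa was related to the share of probes detected on the array within groups (r = -0.46, adjusted permutation p = 0.00512, rho = -0.34, adjusted permutation p = 0.114, r = -0.45 without the 2 arrays farthest from the median share, 16 relations computed). With that share regressed out within groups, Foxa3 and Cebpa gave r = -0.51, and 17 pairs had an adjusted p under 0.05.

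The transcripts whose levels were most like each factor across the 69 mice, within groups and among 8728 genes, were found by Pearson's r with no test. Cebpa lay closest to Eci1 and Acads, enzymes of mitochondrial fatty acid oxidation, and to Pcbd2 (r = 0.82 for each). Cebpb lay closest to Fkbp5, a glucocorticoid-induced co-chaperone (0.77), Serinc3 (0.74) and Sema6b (0.73). Hnf4a lay closest to Slc37a4, the glucose-6-phosphate transporter (0.72), Dap and Nrbp2 (0.71 each). Foxa1 lay closest to P2ry1, a purinergic receptor (0.73), Fam126b (0.68) and Fastkd5 (0.65), and Foxa2 to Acbd4 (0.65), Abat (0.63) and Mthfd1 (0.62). Foxa3 lay closest to Serpina3n, a protease inhibitor (0.74), Dnajc12 and Plpp2 (0.72 each), and Prox1 to Tfr2, the second transferrin receptor (0.74), Ell (0.73) and Sidt2 (0.70). Hhex had no transcript as close, with Cish, a cytokine signalling inhibitor (0.48), Adnp and Gse1 (0.47 each) at the top.

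**Figure D4:**
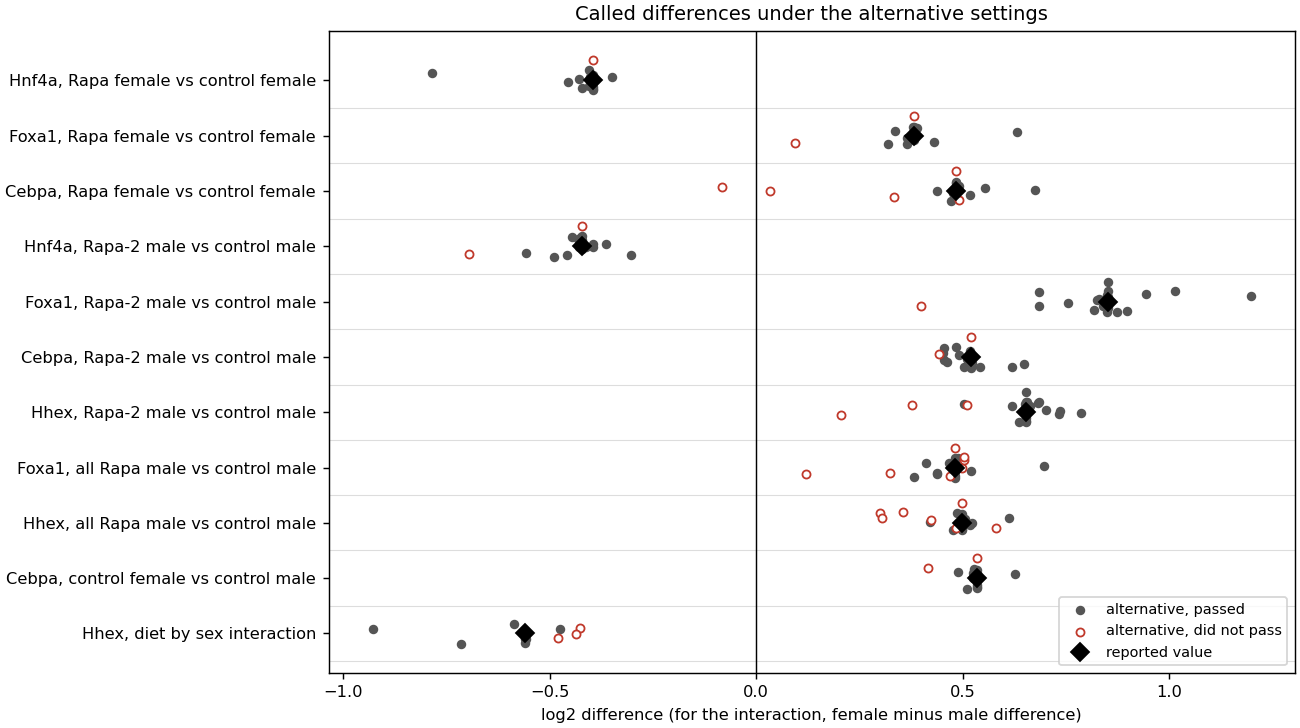
Log2 difference (horizontal axis) of each call by the brightest probe, 1 row per gene and comparison, with the reported value as a black diamond, the 1.5-fold minimum drawn above it, alternatives that passed as grey points and those that did not as open red circles. Hnf4a in Rapa females passed under 16 of 17 alternatives, all but the 1.5-fold minimum, and the values of Cebpa in Rapa females run from -0.081 to 0.67.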

How the data were processed

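Liver RNA of 69 mice was hybridized to Illumina Mouse Ref8 2.0 bead arrays. Per the submitters' processing notes, signals were extracted in Genome Studio 1.6 and normalized in Matlab 2011a. The authors deposited the average bead signal intensity per probe, not normalized, with a detection score that is a fraction equal to 1 minus the detection p. The authors' processed table holds log2 values after quantile normalization, and no aligner or genome build applies. Here the deposited intensities were log2-transformed and quantile-normalized over all 25697 probes, which gave a Pearson r with the deposited log2 values of 0.9999 or more on each array. Testing required a detection p under 0.05 on 13 or more arrays, met by 12442 probes for 8729 genes. Symbols came from the platform annotation, updated through RefSeq for 23962 of the 23978 probes with 1 symbol. The brightest tested probe stands for a gene, and levels of different probes were not compared. The number of arrays limits the precision.

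Groups were compared in pairs with limma 3.58.1 (R 4.3.3), each fit using only its own arrays, and the diet by sex term on all 69, with Benjamini-Hochberg adjustment over all tested probes and 95% intervals from the moderated test. Replicates are separate mice. The fits were run on simulated data with independent normal noise of the same spread in every group. Differences between groups in spread or in array brightness were not simulated. Control animals were divided into 2 runs at the widest gap in their numbers, 366 to 374 and 716 to 730 in males and 651 to 659 and 682 to 695 in females; the labels give no chip or date. Alternatives were neqc background correction with an offset of 16, the deposited values, median scaling, other detection filters, a test with ordinary variance (the methods' t-test), 1 model of all arrays, other change minimums, array measures as covariates, the replicate number as a block, and control arrays of a single run. The block kept only arrays whose replicate number occurred in every diet and sex group compared. In the diet comparisons of males and in the diet by sex term this left only control arrays of the first runs. The change minimums probe by probe, the run as a random block, fits without single arrays, and the alternatives to the correlations were added once the data had been seen. The alternatives are not independent, so counts of those that kept a call are descriptive. No call can be lost with no minimum change, the deposited values nearly equal those used, and several fits in males only leave out single arrays. Named genes are all member probes, up to 4 passing genes with the largest differences of each list per comparison, or else the 1 with the smallest adjusted p, and the 3 genes most like each member. Promoters and their sequences are RefSeq's, of GRCm38.p6. The members and lists were chosen with earlier results of these data known. Nfib and Mlxipl fall outside this rule in Rapa-2 males and were picked there with their values known.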

Additional observations from a re-analysis of the deposited data

Results flagged for a closer look

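In Rapa-2 males the lowest Cebpa value, 8.59 in replicate 4, stood apart from the next, 9.24, by a gap of 0.669 of the range of the group. It was the 1 such value in 18 sets of Rapa-1 or Rapa-2 values looked at, where chance gives about 5%. Replicate 4 also had the lowest Foxa1 and Hnf4a values of the group and its highest share of detected probes, 44.3%. Within the 6 Rapa-2 males that share gave r = -0.95 with Cebpa, -0.83 with Prox1, -0.78 with Hnf4a and with Foxa1, -0.77 with Foxa2 and -0.39 with Hhex. With the others of the 8 genes the share gave 0.42, for Cebpb, and 0.54, for Foxa3. Its part in the low values was not tested.

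The diet difference differed between the sexes for Hhex over all males (-0.56, adjusted p = 0.0157). With only Rapa-2 males it differed for Foxa1 (-0.47, adjusted p = 0.0250) and Hhex (-0.72, adjusted p = 0.00523). With only Rapa-1 males it differed for Hnf4a (-0.68, adjusted p = 0.000149) and Cebpa (0.49, adjusted p = 0.0428), all by limma's test of the interaction. Of all probes 20.4% passed over all males, 19.6% with only Rapa-2 and 36.4% with only Rapa-1 males, and nothing about the genes is read from these counts.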

How the results depend on the processing

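Of 936 probe values under alternatives, 862 kept their side of the threshold, 56 lost the call, 17 gained one and 1 lost it and turned sign, Cebpa in Rapa females with each array's detected share in the fit (-0.081). Among the 862, 75 values that never passed changed sign. The cause was not tested. In Rapa females 6 members passed under median scaling, all lower, where 5722 of the 12442 tested probes passed and only 1.33% of these were higher. None passed in Rapa females with a minimum of 1.5-fold. In Rapa-2 males 2 passed with that minimum and 0 with the raw median of each array in the fit, which separates the groups. Over all Rapa males 1 passed under median scaling and 1 with the detected share in the fit, and 0 with the 1.5-fold minimum, the raw median in the fit, the replicate block, the first or the second control run alone, or the run as a random block. Between control sexes 2 passed with neqc, 2 with no minimum change, 2 by the other tested probe of each gene, 3 with the replicate block and 0 with the 1.5-fold minimum. With the raw median in the fit 1 passed there, but it was Foxa1, lower in control females (-0.40, adjusted p = 0.00955). In the diet by sex term 2 passed under median scaling, 2 with only Rapa-1 and 2 with only Rapa-2 males, 3 with the raw median in the fit, and 0 with the detected share in it or the replicate block. Of all probes 34.2%, 36.4%, 19.6%, 34.8%, 3.95% and 12.0% passed in these, in the same order. Leaving out any 1 Rapa-2 male kept 4 members in that group and 2 over all Rapa males, and any 1 Rapa-1 male kept 0 in that group.

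Mice of the same replicate number deviated together little at the median (median r from -0.11 to 0.16 over the comparisons). Between control females and control males r was over 0.1 in 10 of 16 pairs and ran from -0.53 to 0.46. A low median cannot show that the numbers carry no shared order, which was not tested. Besides the changes above, the calls of Hhex and of the dimmer Prox1 probe in Rapa-2 males were lost with the replicate block. That fit dropped all control males of the second run, so blocking and the loss of control arrays cannot be told apart. Rapa females 1 and 2 stood apart from the others on the first principal component, and Rapa female 6 had the lowest share of detected probes, 37.1%. Without either, 3 members passed in Rapa females. Dim probes limit what can be said of Onecut1 and of the further Foxa2 probe, neither of which was detected on any array.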
